A study of Sordaria macrospora with 14 samples.

Results

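In mycelium of a Sordaria macrospora strain that lacks spt3, 58 of 9869 gene models (0.588%) stood far above their level in wild-type mycelium, and these 58 genes are described here over all groups of the study. They were chosen from the measured values themselves. Values are CPM, read counts scaled to the same total in every library. A gene was taken when its mean over the 2 Δspt3 libraries was at least 10 CPM and its lower Δspt3 value was at least 16 times its higher wild-type mycelium value plus 0.1 CPM. Of the 6778 gene models at 10 CPM or more in Δspt3 mycelium, 0.856% met the rule. The difference between Δspt3 and wild-type mycelium is therefore the reason the genes are listed, and it is given as a description without a test.

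Spt3 is, in budding yeast, a subunit of SAGA, a large coactivator complex that is recruited by activators, modifies histones and helps to bring the TATA-binding protein to promoters. Loss of SAGA subunits in yeast lowers the transcription of many genes, and at some yeast promoters Spt3 has a repressing role. S. macrospora is a self-fertile filamentous ascomycete that is studied for its fruiting bodies, the perithecia, small flasks that enclose the asci with their ascospores. None of the 58 genes carries a name or a product in the tables used here, so they are ordered below by level and pattern and not by role.

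The study holds 4 strains, namely the wild type and strains with a deletion of asm2 (Δasm2), of SMAC_03952 (ΔSMAC_03952) or of spt3 (Δspt3), and the labels state nothing of them beyond the deleted gene. Sexually developing mycelium was grown in liquid corn meal medium, and perithecia were scraped from solid corn meal medium after 10 min in ethanol; every culture was grown for 6 days at 25 °C. Both tissues were sampled of the wild type, Δasm2 and ΔSMAC_03952, and mycelium alone of Δspt3, so that 7 groups of 2 biological replicates make 14 libraries. Liquid or solid culture and the ethanol step differ together with the tissue and cannot be told apart from it, and no perithecia without spt3 enter the comparisons.

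Total counts ranged from 6383079 to 24029990 per library, and the replicates of each group correlated across genes with a Spearman's rho of 0.959 to 0.992. SMAC_03952, the gene deleted in 1 strain, stood at 22.1 ± 1.86 CPM (mean ± SD, n = 2) in its deletion mycelium against 238 ± 11.7 CPM in mycelium of the wild type, and at 45.2 ± 6.15 CPM in its deletion perithecia against 184 ± 29.2 CPM in the wild type. The genes asm2 and spt3 themselves were not analysed here, because the identifiers that belong to these names are not given in the sources used. Among the 12 libraries of the other groups, ΔSMAC_03952 mycelium replicate 1 held the highest value for the most listed genes. These were 15 of the 58 (25.9%), against 10.2% of the gene models that reached 1 CPM in any of the 12. Wild-type mycelium replicate 1, a library of the rule, was also above its share, with 9 of the 58 (15.5%) against 5.37%.

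Together the 58 genes took 4.23% ± 0.337 (SD, n = 2) of all counts in Δspt3 mycelium. Their share was 0.0574% ± 0.00255 in wild-type mycelium and 0.0429% ± 0.00398 in wild-type perithecia. It was 0.0659% ± 0.00391 in Δasm2 mycelium and 0.0485% ± 0.00342 in Δasm2 perithecia, and 0.0880% ± 0.0327 in ΔSMAC_03952 mycelium and 0.0352% ± 0.00193 in ΔSMAC_03952 perithecia. The Δspt3 libraries thus held a share far above that of every other group, while the other 6 groups lay between 0.0352% and 0.0880%. The 5 genes with the most counts made up 42.6% of the summed CPM of the list in Δspt3. The median over the 58 genes of the mean CPM was 213 in Δspt3 (from 10.0 to 6720) and lay between 2.10 in ΔSMAC_03952 perithecia and 5.45 in ΔSMAC_03952 mycelium in the other groups.

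**Figure D1:**
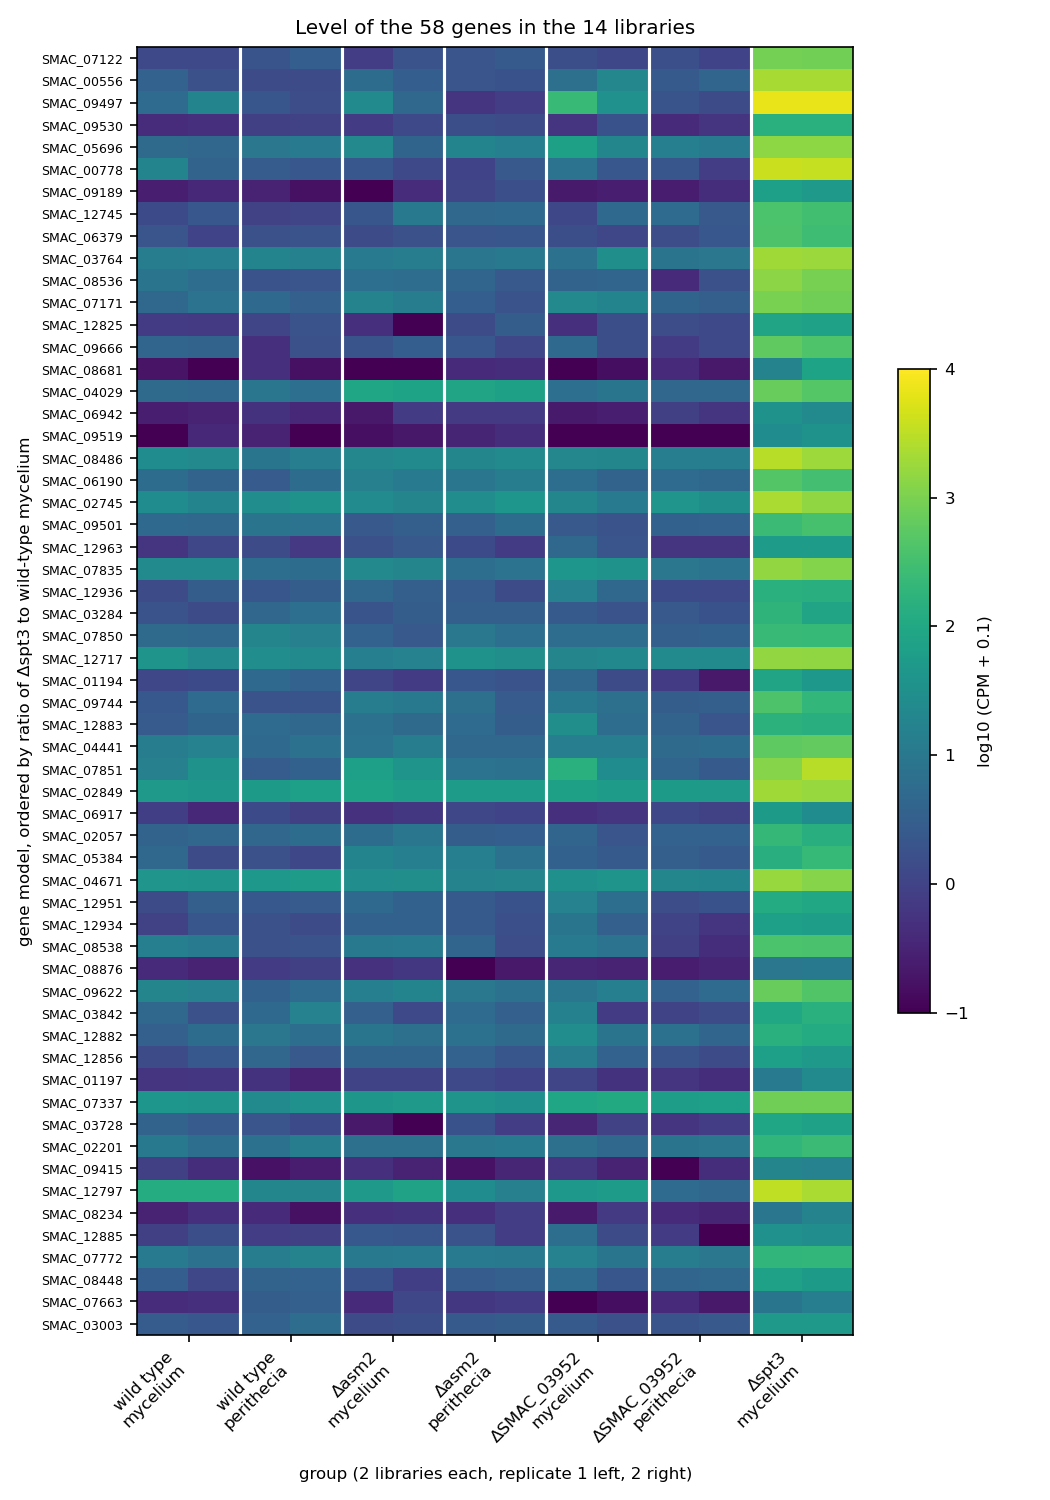
Level of each of the 58 genes (rows, from the largest to the smallest ratio of Δspt3 to wild-type mycelium) in each of the 14 libraries (columns, replicate 1 and 2 of each group side by side), as log10 of CPM plus 0.1. The 2 Δspt3 columns are the brightest in every row, and among the other columns SMAC_04029 is brighter in the 4 Δasm2 libraries and SMAC_09497 in ΔSMAC_03952 mycelium.

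SMAC_09497 had the most counts of the list. It stood at 6704 and 6736 CPM in the 2 Δspt3 libraries, at 5.45 and 17.6 CPM in mycelium of the wild type and at 2.04 and 1.42 CPM in its perithecia. Per length, as TPM (counts divided by the length of the gene model and scaled to the same total), it reached 13452 ± 457 TPM (SD, n = 2) in Δspt3, the rank of 4 among all gene models there, against a mean of 23.98 TPM in wild-type mycelium. SMAC_00556, a gene model of 330 bases, came next at 10031 ± 384 TPM and the rank of 5, against 12.4 TPM in wild-type mycelium. Its CPM values were 2240 and 2265 in Δspt3 and 3.62 and 1.62 in wild-type mycelium. Genes of this list thus stood among the most abundant transcripts of the strain: 7 were among the 50 highest gene models by TPM in Δspt3 mycelium, 10 among the 100 highest and 28 among the 500 highest.

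The other 5 of those 7 ranged from 3105 to 4169 TPM. SMAC_12797 stood at 3273 and 2304 CPM in Δspt3, and it differed from the rest in that wild-type mycelium already held 126 and 122 CPM. SMAC_00778 stood at 4065 and 3586 CPM against 17.7 and 3.84 CPM in wild-type mycelium. SMAC_08486 stood at 2918 and 1884 CPM against 27.1 and 22.7, and SMAC_03764 at 1931 and 1744 CPM against 13.2 and 14.2. These 4 genes kept a wide gap between the groups in both replicates. SMAC_07851 was less even, with 1218 and 2901 CPM in Δspt3 against 15.1 and 36.4 CPM. SMAC_02745, which completes the 8 genes with the highest CPM, stood at 2327 and 1505 CPM against 27.0 and 18.3 CPM.

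By the measure of the rule, the lower Δspt3 value over the higher wild-type mycelium value plus 0.1 CPM, the median of the list was 35.6 and 13 genes reached 100 or more. The largest ratio, 687, belonged to SMAC_07122, which stood at 918 and 869 CPM in Δspt3 and at 1.17 and 1.16 CPM in wild-type mycelium. SMAC_05696 combined a high level with a high ratio, at 1411 and 1440 CPM against 5.20 and 4.29 CPM. SMAC_12745 stood at 380 and 306 CPM against 1.25 and 2.17 CPM. At lower levels, SMAC_09530 stood at 151 and 152 CPM against 0.333 and 0.404 CPM, and SMAC_09189 at 66.1 and 49.8 CPM against 0.166 and 0.253 CPM. All of them were low in both wild-type mycelium libraries and high in both Δspt3 libraries. In the authors' deposited table the log2 fold change of the 58 genes between Δspt3 and wild-type mycelium ran from 4.44 to 10.13 with a median of 6.04.

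Ratios ran through the threshold without a gap. The 3 genes just inside the threshold were SMAC_03003 with a ratio of 16.5, SMAC_07663 with 16.8 and SMAC_08448 with 17.1. The 3 just outside were SMAC_08157 with 15.99, SMAC_01627 with 15.3 and SMAC_08535 with 14.9. With wild type and Δspt3 exchanged, the same rule took 342 gene models, so more gene models stood far lower than far higher without spt3. Between the Δspt3 replicates, 42 of the 58 genes lay within 1.5 times of each other and the median ratio of the higher to the lower value was 1.30. More than 2 times apart were SMAC_08681 at 17.4 and 78.6 CPM, SMAC_03284 at 177 and 83.7 CPM, SMAC_09744 at 410 and 200 CPM, and SMAC_07851.

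The rule looked only at mycelium of the wild type, and the other 10 libraries show whether the high level occurs elsewhere. For all 58 genes the lower Δspt3 value lay above the highest of the 12 libraries of the other groups, those of the rule included. The ratio to that highest library (plus 0.1 CPM) had a median of 19.6, from 2.53 for SMAC_07663 to 282 for SMAC_07122. It was 16 or more for 33 genes and lower for 25. No other strain or tissue held any of the genes at its Δspt3 level, but for 25 of them the gap to the nearest library of another group was narrower than the gap to wild-type mycelium that the rule asked for. The rule chose the genes by high Δspt3 values, which favours such a separation. No share of all gene models stands beside these counts, so they are a description.

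**Figure D2:**
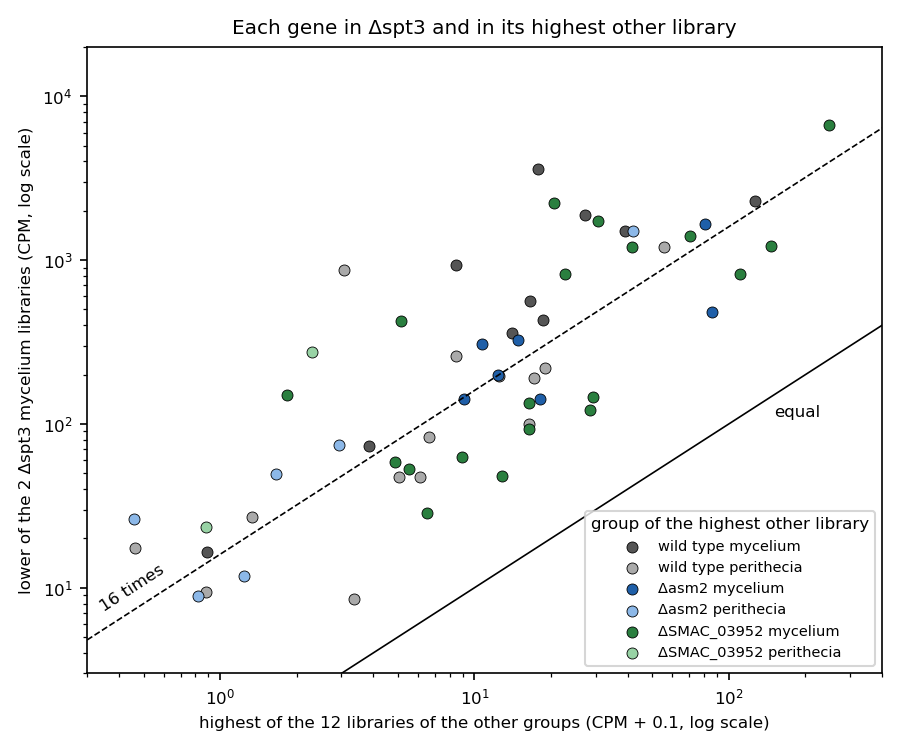
Lower of the 2 Δspt3 mycelium values of each gene (vertical axis, CPM, log scale) against its highest value in the 12 libraries of the other groups (horizontal axis, CPM plus 0.1, log scale), coloured by the group of that library. All 58 points lie above the line of equal values, and 33 lie on or above the broken line of 16 times.

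By their level outside Δspt3 the genes fell into 3 sets. In the first set, 6 genes stayed under 1 CPM in each of the 12 libraries: SMAC_08681, SMAC_06942, SMAC_09519, SMAC_08876, SMAC_09415 and SMAC_08234. Their means in Δspt3 ran from 10.0 to 48.0 CPM. SMAC_09519 stood at 26.4 and 34.8 CPM in Δspt3, had no count in any of the 4 ΔSMAC_03952 libraries, and reached at most 0.360 CPM, in Δasm2 perithecia. Against a floor of 3 counts over a group, the lower Δspt3 replicate was at least 232-fold higher than ΔSMAC_03952 mycelium and at least 132-fold higher than ΔSMAC_03952 perithecia. SMAC_08681 had no count in Δasm2 mycelium, and its lower Δspt3 replicate was at least 150-fold higher (at least 413-fold by the mean of 2 uneven replicates); these bounds cover counting error only. These 6 genes passed the filter on low counts only because of the Δspt3 libraries; the other 52 passed it without them.

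In the second set, 22 genes had a mean between 1 and 10 CPM in their highest other group, with means of 11.0 to 1151 CPM in Δspt3. SMAC_08536 was the most abundant of them by CPM, at 1366 and 936 CPM in Δspt3, 8.36 and 5.96 CPM in wild-type mycelium and 1.82 and 1.98 CPM in wild-type perithecia. SMAC_07122 stood between 0.724 and 2.98 CPM in the 12 other libraries, a low level in both tissues and in all 3 strains. SMAC_06379 was likewise low, between 0.909 and 2.19 CPM in the 12 libraries against 403 and 276 CPM in Δspt3. SMAC_03728 varied more, from 3.75 and 2.58 CPM in wild-type mycelium to 0.121 and 0 CPM in Δasm2 mycelium, against 86.5 and 73.0 CPM in Δspt3.

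In the third set, 30 genes reached a mean of 10 CPM or more in at least 1 other group, with means of 106 to 6720 CPM in Δspt3. In CPM, which is not divided by length, the highest group mean outside Δspt3 was 141 ± 152 CPM (SD, n = 2), for SMAC_09497 in ΔSMAC_03952 mycelium, where replicate 1 held 248 CPM and replicate 2 held 33.7 CPM. It was followed by SMAC_12797 in wild-type mycelium at 124 ± 2.90 CPM, SMAC_07337 in ΔSMAC_03952 mycelium with 85.2 and 111 CPM and SMAC_07851 in ΔSMAC_03952 mycelium at 86.2 ± 84.4 CPM. The order of these 4 is loose where the SD is as wide as the mean. SMAC_02849 kept to a narrow range across tissues and strains, between 45.1 and 80.5 CPM in the 12 libraries, and stood at 1977 and 1671 CPM in Δspt3. The highest other group was ΔSMAC_03952 mycelium for 16 genes, wild-type perithecia for 12, wild-type mycelium for 10, Δasm2 perithecia for 10, Δasm2 mycelium for 7 and ΔSMAC_03952 perithecia for 3. Without ΔSMAC_03952 mycelium replicate 1 these numbers were 12 for ΔSMAC_03952 mycelium, 13 for Δasm2 mycelium and 8 for Δasm2 perithecia, with the others as before.

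The rule read no library of the groups set against each other in what follows, although the low-count filter and the estimate of the spread used all 14 libraries; 6 such comparisons of 2 groups and 1 interaction were tested with edgeR's quasi-likelihood test on all 9499 gene models that passed the filter. P-values were adjusted over all of these, a gene is called when its adjusted p is under 0.05, and several of the comparisons share a group. With 1 replicate left out, the share of all genes called changed too, so changed counts of calls are not particular to the list. For every listed gene called, the replicates of the 2 groups did not overlap, except SMAC_03764 between the tissues of ΔSMAC_03952. With 2 libraries per group this adds little to a call. Listed genes not called could be separated too, such as SMAC_06379 between the tissues of Δasm2 (edgeR adjusted p = 0.536). Tissue was compared first, since it asks whether genes that are high without spt3 also differ between mycelium and fruiting bodies. In bulk RNA, a change in the share of cells of a type and a change of RNA per cell cannot be told apart.

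In Δasm2, 11 of the 58 genes were lower in perithecia than in mycelium (13.3% of all genes tested were lower) and 5 were higher (12.9% of all were higher). The 11 include SMAC_08876, which was tested only because the Δspt3 libraries took it past the filter, so its call carries no weight. The median log2 fold change of the list was -0.42, against 0.04 over all genes. SMAC_09497 was lower by the most: it stood at 23.4 and 4.77 CPM in Δasm2 mycelium and at 0.456 and 0.721 CPM in Δasm2 perithecia, which is -4.74 on the log2 scale (SE 1.09, edgeR adjusted p = 0.0073). SMAC_07851 fell from 65.3 and 38.5 CPM to 7.99 and 7.33 CPM (-2.92, SE 0.69, edgeR adjusted p = 0.00866). SMAC_07171 fell from 16.9 and 13.1 CPM to 2.97 and 1.80 CPM (-2.82, SE 0.40, edgeR adjusted p = 0.000412). All 3 were well separated between the tissues, but the calls of SMAC_09497 and SMAC_07851 end when Δasm2 mycelium replicate 1 is left out (edgeR adjusted p = 0.0987 and 0.059) or either Δasm2 perithecia replicate (between 0.0562 and 0.0708).

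Of the 5 that were higher in Δasm2 perithecia, only SMAC_12717 reached a mean of 10 CPM there. It stood at 14.2 and 16.4 CPM in mycelium and at 37.3 and 30.0 CPM in perithecia (log2 difference 0.99, SE 0.27, edgeR adjusted p = 0.0172), with adjusted p between 0.0604 and 0.134 when 3 of the 4 replicates are left out in turn. The other 4 were SMAC_07850, SMAC_12825, SMAC_09189 and SMAC_03728, with means of 1.24 to 8.18 CPM in perithecia. The total of 16 calls was 27.6% of the list, where 26.2% of all genes were called. The list's median log2 fold change was -0.25 without Δasm2 mycelium replicate 1, against 0.05 over all genes. It was -0.43 without Δasm2 perithecia replicate 1 (0.03 over all) and -0.36 without perithecia replicate 2 (-0.01 over all).

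In ΔSMAC_03952, 27 of the 58 genes (46.6%) were lower in perithecia than in mycelium, where 19.4% of all genes tested were lower. In either direction 35.8% of all genes were called. By edgeR 0 were higher, where 16.4% of all were; 1 was higher at an unadjusted p under 0.05, and DESeq2 called 1 higher. The median log2 fold change of the list was -0.96, against 0.00 over all genes. SMAC_09497 fell from 248 and 33.7 CPM to 1.88 and 1.27 CPM (-6.70, SE 1.11, edgeR adjusted p = 0.00116). SMAC_07851 fell from 146 and 26.5 CPM to 4.23 and 2.54 CPM (-4.89, SE 0.79, edgeR adjusted p = 0.001), and SMAC_12797 from 46.4 and 56.6 CPM to 5.48 and 4.38 CPM (-3.63, SE 0.40, edgeR adjusted p = 0.000116). Without ΔSMAC_03952 mycelium replicate 1 the log2 fold changes of the first 2 are -4.73 and -3.28, while SMAC_12797 was as high in replicate 2. The median log2 fold change of the list was -0.88 without mycelium replicate 1, against 0.00 over all genes. It was -1.04 without perithecia replicate 2, against -0.04 over all genes.

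The tissue comparisons of the 2 strains share no library. The genes lower in perithecia in both were 9, which is 81.8% of the 11 from Δasm2 and 33.3% of the 27 from ΔSMAC_03952. Without ΔSMAC_03952 mycelium replicate 1 the same 9 were lower in both, of 20 then lower in ΔSMAC_03952. Over all genes tested the lower genes common to both were 986, which is 78.1% of those from Δasm2 and 53.6% of those from ΔSMAC_03952. The 9 were SMAC_04441, SMAC_04671, SMAC_07171, SMAC_07835, SMAC_07851, SMAC_08538, SMAC_09497, SMAC_09622 and SMAC_12797. Wild-type libraries gave the same order of levels for SMAC_12797, with 126 and 122 CPM in mycelium and 19.4 and 18.6 CPM in perithecia. For SMAC_07835 they held 24.2 and 24.05 CPM in mycelium and 6.33 and 5.88 CPM in perithecia. SMAC_04441, SMAC_07851, SMAC_08538, SMAC_09497 and SMAC_09622 also lay lower in both wild-type perithecia libraries than in both mycelium libraries. The values of SMAC_07171 overlapped between the wild-type tissues. For SMAC_04671 the wild type went the other way, with 40.7 and 38.1 CPM in mycelium and 46.6 and 55.6 CPM in perithecia. The wild-type tissues are given as values only, because wild-type mycelium served to choose the genes.

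**Figure D3:**
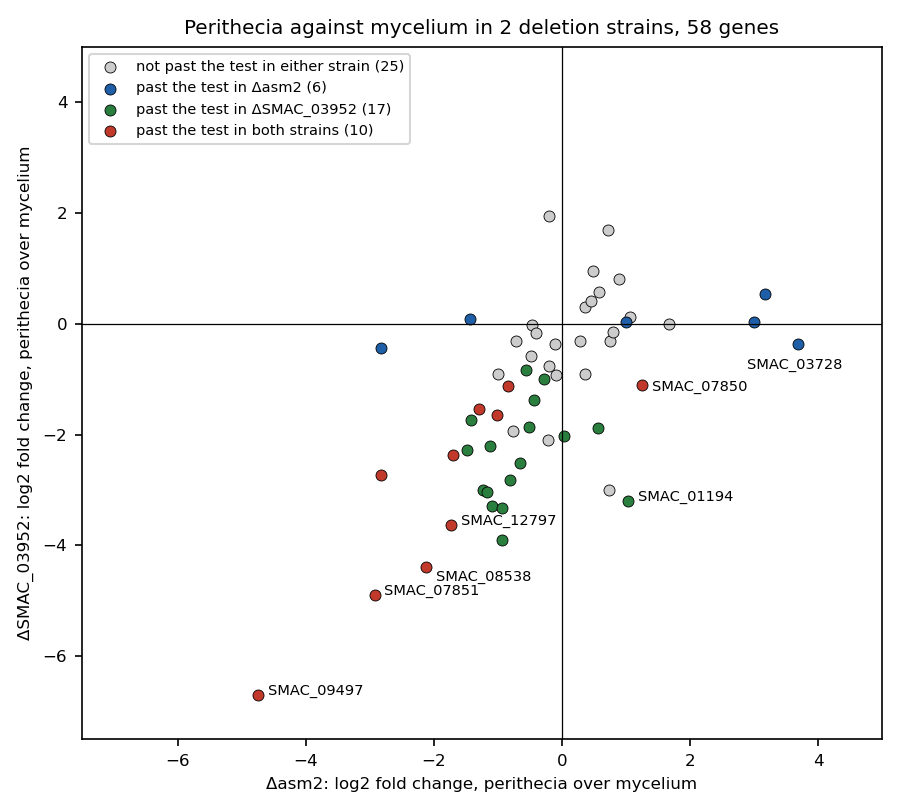
Log2 fold change of perithecia over mycelium for the 58 genes in Δasm2 (horizontal axis) and in ΔSMAC_03952 (vertical axis), coloured by whether the gene passed an edgeR adjusted p of 0.05 in either strain. Genes past the test in ΔSMAC_03952 lie below 0 on the vertical axis, and SMAC_07850 is the gene past the test in both strains with opposite signs.

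SMAC_07850 was called in opposite directions in the 2 strains. It stood at 3.62 and 2.39 CPM in Δasm2 mycelium and at 9.81 and 6.55 CPM in Δasm2 perithecia (log2 difference 1.25, SE 0.32, edgeR adjusted p = 0.0121). In ΔSMAC_03952 it stood at 6.05 and 6.01 CPM in mycelium and at 3.13 and 3.46 CPM in perithecia (-1.10, SE 0.34, edgeR adjusted p = 0.0246). Among all genes tested, 17 were called in opposite directions in this way. The difference between the strains' tissue effects was 2.36 on the log2 scale (SE 0.46) and missed the threshold over all genes (edgeR adjusted p = 0.0903).

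That interaction, the tissue effect in Δasm2 minus the tissue effect in ΔSMAC_03952, called 0 of the 58 genes by edgeR. Over all genes 0.105% were called higher and 0.0421% lower, 0.147% together. At an unadjusted p under 0.05 there were 16 of the 58, and for 15 of them the log2 fold change of perithecia over mycelium was higher in Δasm2. Of these 15, 5 belong to the 7 genes described below that were highest outside Δspt3 in ΔSMAC_03952 mycelium replicate 1. DESeq2 called 3: SMAC_07850 (log2 difference 2.32, DESeq2 adjusted p = 0.00352), SMAC_01194 (4.27, DESeq2 adjusted p = 0.007) and SMAC_12797 (1.86, DESeq2 adjusted p = 0.0443). SMAC_01194, a gene of low level, stood at 1.03 and 0.651 CPM in Δasm2 mycelium, 2.21 and 1.80 CPM in Δasm2 perithecia, 4.54 and 1.35 CPM in ΔSMAC_03952 mycelium and 0.627 and 0.115 CPM in ΔSMAC_03952 perithecia. No share of all genes stands beside the counts at unadjusted p and by DESeq2, so they are a description. The median interaction of the list was 0.94 on the log2 scale, against 0.06 over all genes. Since so few of all genes passed this test, 0 calls in the list cannot decide a difference between the strains. The larger number of tissue calls in ΔSMAC_03952 than in Δasm2 is therefore not shown to be one.

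The strains were then compared within perithecia. Against the wild type, Δasm2 perithecia had 4 of the 58 genes higher (5.04% of all genes tested were higher) and 5 lower (6.73% of all were lower). SMAC_04029 stood out among the higher ones: it held 82.3 and 67.9 CPM in Δasm2 perithecia and 9.17 and 6.59 CPM in wild-type perithecia (log2 difference 3.20, SE 0.32, edgeR adjusted p = 7.59e-05). Its level was as high in Δasm2 mycelium, at 86.1 and 78.2 CPM, while wild-type mycelium held 5.37 and 4.75 CPM. The 4 Δasm2 libraries thus lay between 67.9 and 86.1 CPM, the other 8 libraries outside Δspt3 between 4.39 and 9.17 CPM, and the Δspt3 libraries at 701 and 484 CPM. Outside Δspt3, no library of another strain came near the Δasm2 level of SMAC_04029 in either tissue.

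SMAC_05384 was likewise highest in Δspt3 and next highest in the Δasm2 tissues. It stood at 14.2 and 7.51 CPM in Δasm2 perithecia against 1.60 and 1.13 CPM in wild-type perithecia (log2 difference 2.94, SE 0.54, edgeR adjusted p = 0.00357), at 18.0 and 14.2 CPM in Δasm2 mycelium and at 143 and 220 CPM in Δspt3. SMAC_06190 stood at 9.21 and 13.2 CPM against 2.62 and 5.81 CPM (1.40, SE 0.37, edgeR adjusted p = 0.0281), and its call ends without wild-type perithecia replicate 1 or either Δasm2 perithecia replicate (edgeR adjusted p between 0.0527 and 0.208). The last of the 4, SMAC_09189, had a mean of 1.28 CPM in Δasm2 perithecia.

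On the lower side, SMAC_04671 stood at 17.0 and 18.9 CPM in Δasm2 perithecia against 46.6 and 55.6 CPM in wild-type perithecia (log2 difference -1.54, SE 0.25, edgeR adjusted p = 0.00155). SMAC_07850 stood at 9.81 and 6.55 CPM against 18.8 and 14.7 CPM (-1.08, SE 0.29, edgeR adjusted p = 0.0314), a call that ends without the libraries of the rule (0.0672), in a fit of the 4 compared libraries alone (0.0504) and without wild-type perithecia replicate 1 (0.223) or Δasm2 perithecia replicate 1 (0.053) or 2 (0.263). The other 3 lower genes were SMAC_09501, SMAC_07663 and SMAC_08876, all under 10 CPM in both groups, and SMAC_08876 was tested only because of the Δspt3 libraries. Without the libraries of the rule the calls were 4 higher and 2 lower, and in a fit of the 4 compared libraries alone 7 higher and 2 lower, so the balance of directions differed between the fits. The 9 calls became 4 without Δasm2 perithecia replicate 1 and 5 without replicate 2.

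ΔSMAC_03952 perithecia had 1 of the 58 genes higher than the wild type (6.24% of all genes tested were higher) and 8 lower (11.2% of all were lower). The higher gene was SMAC_07337, at 62.7 and 66.6 CPM against 25.1 and 33.9 CPM (log2 difference 1.04, SE 0.22, edgeR adjusted p = 0.00575, and 0.0548 without wild-type perithecia replicate 1). SMAC_07850 was lower by the most among the listed genes called with a group mean above 10 CPM, at 3.13 and 3.46 CPM against 18.8 and 14.7 CPM (-2.47, SE 0.33, edgeR adjusted p = 0.000302). SMAC_12797 stood at 5.48 and 4.38 CPM against 19.4 and 18.6 CPM (-2.07, SE 0.39, edgeR adjusted p = 0.00339, and 0.0602 without ΔSMAC_03952 perithecia replicate 2). SMAC_04671 stood at 19.9 and 18.3 CPM against 46.6 and 55.6 CPM (-1.52, SE 0.25, edgeR adjusted p = 0.00139). Both comparisons with wild-type perithecia use the same 2 wild-type libraries, so the lower values of SMAC_04671 and SMAC_07850 in both are not independent. Of the other 5 lower genes, SMAC_07663 and SMAC_01194 had the steepest differences, at means of 3.05 and 4.28 CPM in the wild type, and the 9 calls became 4 without ΔSMAC_03952 perithecia replicate 2.

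**Figure D4:**
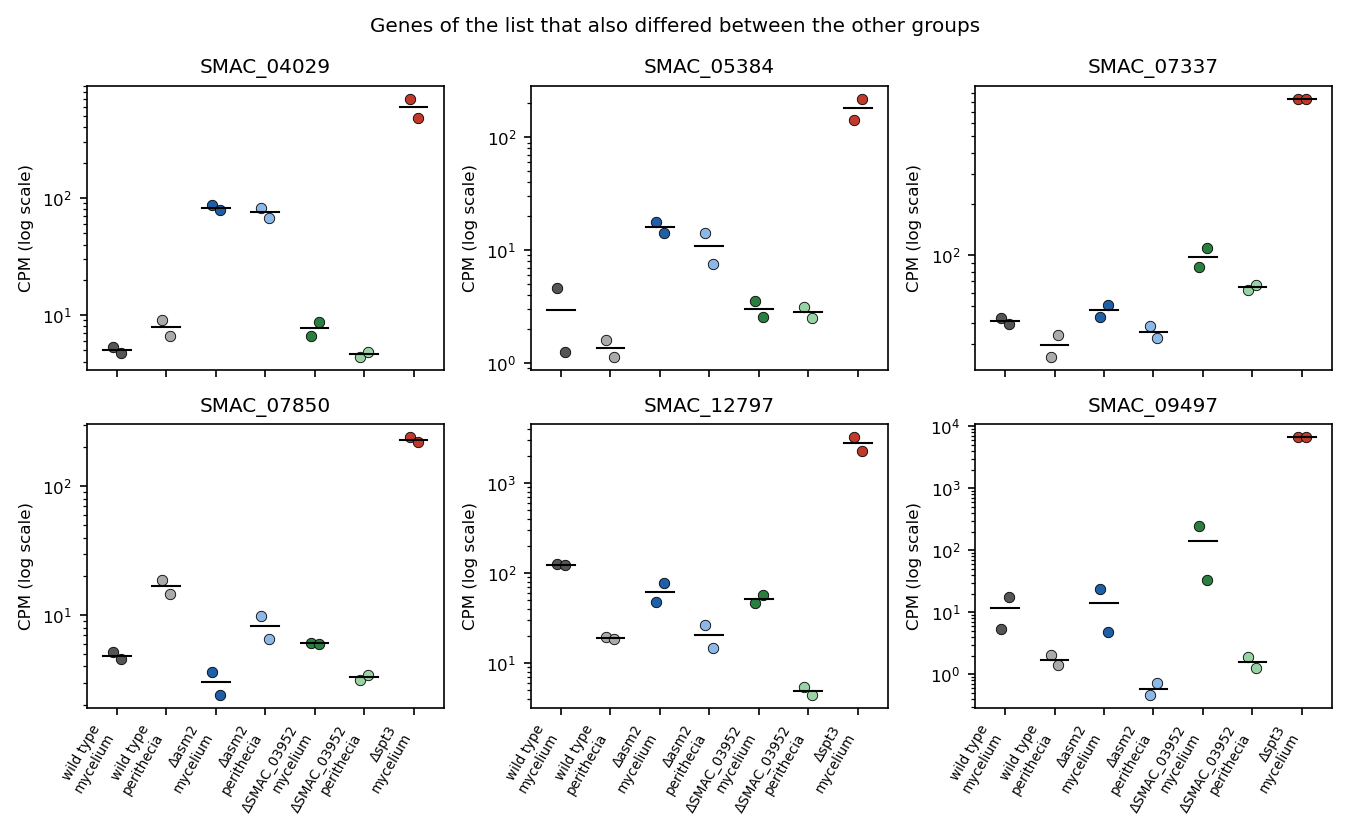
CPM (log scale, a separate axis for each panel) of 6 of the 58 genes in the 7 groups; points are the 2 libraries of a group and lines their mean. SMAC_04029 and SMAC_05384 are higher in both Δasm2 tissues than in the other groups outside Δspt3, SMAC_12797 and SMAC_09497 are lower in perithecia, and all 6 are highest in Δspt3.

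Set directly against each other, Δasm2 perithecia had 5 of the 58 genes above ΔSMAC_03952 perithecia (3.88% of all genes tested were higher). By edgeR 0 were below (0.611% of all were lower), with 1 at an unadjusted p under 0.05 and 1 called by DESeq2, and 4.50% of all were called in either direction. SMAC_04029 differed by 4.10 on the log2 scale (SE 0.35, edgeR adjusted p = 7.15e-05), from 4.39 and 4.84 CPM in ΔSMAC_03952 perithecia. SMAC_12797 stood at 26.3 and 14.8 CPM against 5.48 and 4.38 CPM (2.14, SE 0.39, edgeR adjusted p = 0.00742). SMAC_05384 lay just under the threshold (2.02, SE 0.53, edgeR adjusted p = 0.049), and its call ends with RLE size factors, library totals or the length trend removed, and without any of the 4 replicates (edgeR adjusted p between 0.0552 and 0.428). Only SMAC_04029 was called in every alternative run here: without Δasm2 perithecia replicate 1, or without either ΔSMAC_03952 perithecia replicate, the 5 calls became 1.

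In mycelium, Δasm2 had 2 of the 58 genes above ΔSMAC_03952 (2.60% of all genes tested were higher) and 1 below (0.863% of all were lower). SMAC_04029 stood at 86.1 and 78.2 CPM against 6.68 and 8.76 CPM (log2 difference 3.38, SE 0.32, edgeR adjusted p = 0.000205), and SMAC_05384 at 18.0 and 14.2 CPM against 3.53 and 2.54 CPM (2.44, SE 0.50, edgeR adjusted p = 0.0197). SMAC_07337 stood at 43.5 and 51.1 CPM against 85.2 and 111 CPM (-1.07, SE 0.21, edgeR adjusted p = 0.0165). The calls of SMAC_05384 and SMAC_07337 end in a fit of the 4 compared libraries alone (edgeR adjusted p = 0.0669 and 0.196) and without either Δasm2 mycelium replicate or ΔSMAC_03952 mycelium replicate 2 (between 0.0532 and 0.151). The 3 calls became 7 without ΔSMAC_03952 mycelium replicate 1 and 1 without Δasm2 mycelium replicate 2.

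A group of 7 listed genes had its highest values outside Δspt3 in the same library. It was put together after the values had been seen and is described without a test of its own. SMAC_12856, SMAC_12882, SMAC_12883, SMAC_12885, SMAC_12934, SMAC_12936 and SMAC_12951 are gene models of 1231 to 1413 bases that have no counterpart by locus tag in the RefSeq annotation ASM3387043v1. Of the 58 genes, 9 (15.5%) have none, against 3.42% of all gene models. Their means ran from 31.3 to 155 CPM in Δspt3 and from 1.15 to 4.54 CPM in wild-type mycelium. All 7 were highest of the 12 other libraries in ΔSMAC_03952 mycelium replicate 1, where they stood 2.52 to 4.82 times above replicate 2. SMAC_12883, for example, held 29.2 CPM there, 6.06 CPM in replicate 2, and 3.76 and 1.96 CPM in ΔSMAC_03952 perithecia.

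All 7 are among the 27 genes called lower in ΔSMAC_03952 perithecia, with log2 fold changes from -1.86 to -3.91. Without mycelium replicate 1, 3 of the 7 passed the test, SMAC_12934 (-2.57, edgeR adjusted p = 0.0104), SMAC_12936 (-2.21, edgeR adjusted p = 0.0134) and SMAC_12951 (-2.31, edgeR adjusted p = 0.00776). In Δasm2 edgeR called 0 of the 7 between tissues (26.2% of all genes tested were called, so with 7 genes little can be read from it), with 1 at an unadjusted p under 0.05 and 0 by DESeq2. The genes were grouped by length and are alike in pattern, and the sources used here do not say how reads that match several places were counted. Whether these gene models share sequence was not tested, so their counts may not be independent of each other.

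Of the 49 listed genes that match RefSeq, 11 lay in 3 runs in which a listed gene is at most 5 places from the next in the order of that annotation; this step was chosen after the order had been seen. In the longest run, 5 of 12 successive gene models were on the list: SMAC_09666, SMAC_09622, SMAC_08536, SMAC_08538 and SMAC_12797. All 12 had a ratio by the rule above 1, and 4 of the 7 between the listed genes had a ratio of 5 or more. The same ratio chose the listed genes. How many gene models have such ratios, or how often genes fall in such runs, was not tested. These counts are a description. SMAC_08541, next to SMAC_12797, stood at 3788 and 3548 CPM in Δspt3 and at 368 and 313 CPM in wild-type mycelium, a ratio of 9.63. SMAC_08535 and SMAC_09621 reached ratios of 14.9 and 14.7, just short of the rule, while SMAC_08537, within the same stretch, stood at 17.7 and 18.5 CPM in Δspt3 and 13.1 and 11.9 CPM in wild-type mycelium. The stretch thus held genes with a steep difference side by side with genes of nearly equal level.

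**Figure D5:**
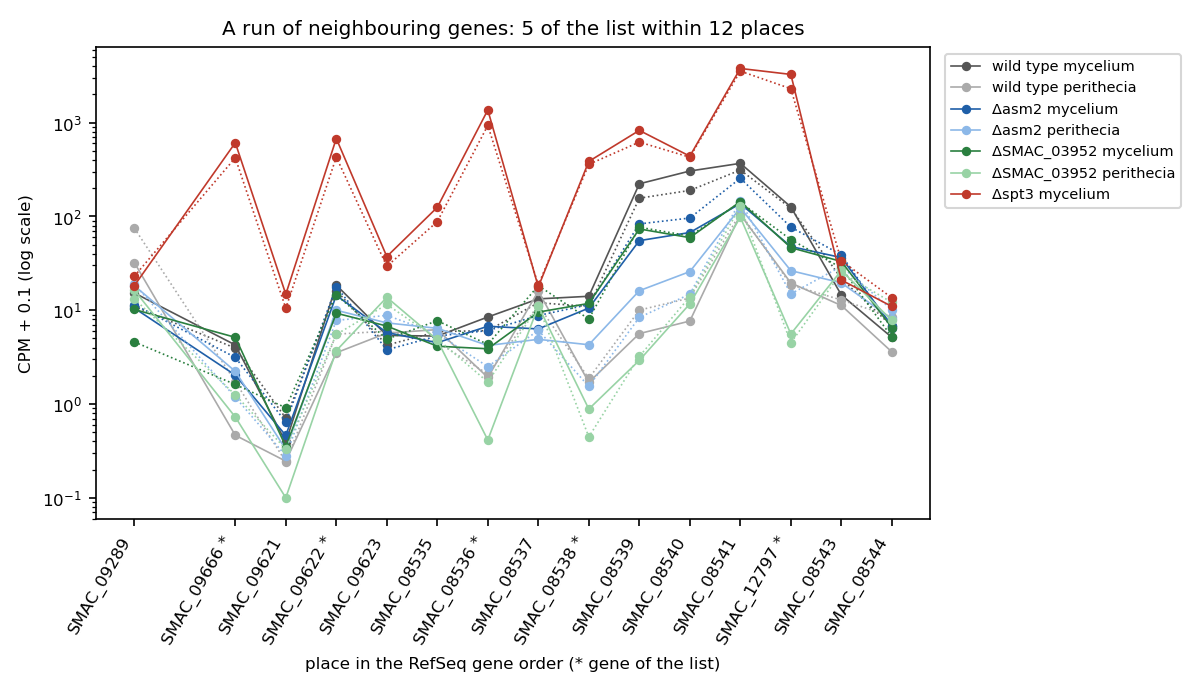
CPM plus 0.1 (vertical axis, log scale) of the gene models of the longest run and of gene models next to it, in RefSeq gene order (horizontal axis; an asterisk marks the 5 listed genes), with a solid line for replicate 1 and a dotted line for replicate 2 of each group. The Δspt3 lines leave the others from SMAC_09666 to SMAC_12797, meet them at SMAC_08537, lie among them at SMAC_08543 and lie close to them at SMAC_08544.

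The same stretch varied with tissue in libraries that the rule did not use. In Δasm2, 5 of the 12 gene models were lower in perithecia (13.3% of all genes tested), 3 of them on the list, and by edgeR 0 were higher, with 0 at an unadjusted p under 0.05 and 0 by DESeq2. In ΔSMAC_03952, 6 were lower (19.4% of all genes tested), 4 of them on the list, and 1 was higher (16.4% of all). The other 2 lower genes were the same in both strains, SMAC_08539 and SMAC_08540, which lie next to each other. SMAC_08539 stood at 55.1 and 83.2 CPM in Δasm2 mycelium and at 16.1 and 8.29 CPM in Δasm2 perithecia (log2 difference -2.64, SE 0.36, edgeR adjusted p = 0.000328). In ΔSMAC_03952 it stood at 73.5 and 76.6 CPM in mycelium and at 2.82 and 3.11 CPM in perithecia (-4.89, SE 0.43, edgeR adjusted p = 2.44e-05). The listed gene beside it, SMAC_08538, fell from 11.7 and 7.95 CPM to 0.783 and 0.346 CPM in ΔSMAC_03952 (-4.39, SE 0.55, edgeR adjusted p = 0.000247).

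The second run held SMAC_09744, SMAC_06942, SMAC_07851 and SMAC_07850 within 8 places, and the third held SMAC_01194 and SMAC_01197 within 4. SMAC_07851 and SMAC_07850 were the only listed genes directly next to each other. They differed in direction between tissues in the wild type and in Δasm2, while both were lower in perithecia of ΔSMAC_03952: wild-type mycelium and perithecia held 15.1 and 36.4 against 2.77 and 3.47 CPM of SMAC_07851, and 5.16 and 4.55 against 18.8 and 14.7 CPM of SMAC_07850. SMAC_07852, on the other side of SMAC_07851, stood at 1801 and 1502 CPM in Δspt3 and at 112 and 161 CPM in wild-type mycelium. Over the whole list, 81 gene models off the list lie next to a listed gene. Of these, 28 (34.6%) had a ratio by the rule of 2 or more, against 9.66% of the 9482 matched gene models off the list. Another 13 of the 81 went the other way, with wild-type mycelium at least 2 times above Δspt3, a count without a share of all gene models beside it. These counts come from the comparison that chose the genes and are given as a description.

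The listed gene models were short. Their median length was 1217 bases (306 to 4833) and 24 of 58 (41.4%) were under 1000 bases. Among the gene models at 10 CPM or more in Δspt3 that the rule left out, the median was 2074 bases and 9.72% were under 1000, and over all gene models the median was 1811 bases with 18.5% under 1000. Of the gene models with a mean of at least 1 CPM over all libraries, 1339 were under 1000 bases and 7857 were longer. Listed genes were 1.79% of the short class and 0.433% of the long class. The median log2 ratio of Δspt3 to wild-type mycelium was -0.19 for the short class and -0.16 for the long class. The short class lay above the long class by 0.18 in Δspt3 replicate 1 and by -0.21 in replicate 2, so the replicates differed in sign. Whether length bears on the list was not tested. The listed genes under 1000 bases had a median ratio by the rule of 72.0 and the longer ones 33.5.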

How the data were processed

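The 14 RNA-seq libraries of S. macrospora were analysed from the deposited table of raw read counts per gene model, per the file headers. The labels also mention microdissected RNA, but name each sample mycelium or perithecia, and samples were taken as named. Per the file headers, the table further gives mRNA lengths and the authors' own mean normalized signal, log2 fold changes and adjusted p-values; of these columns, lengths and log2 fold changes were used. The submitters' processing notes name DESeq2 without a version. Not given in the sources used here: the aligner, the counting program, the strand setting and the genome build. Counts of close copies, overlapping genes and antisense genes are therefore uncertain. Per-sample columns left out: 0.

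Of 10014 rows, 145 rows for second transcripts held 0 counts and were dropped, which left 9869 gene models. R 4.3.3 with edgeR 4.0.16 (filterByExpr by group, TMM, 1 mean per group over 14 libraries, common biological coefficient of variation 0.237, 7 residual and 5.50 prior degrees of freedom) tested 9499 of them, with Benjamini-Hochberg adjustment within each comparison. The method was tested on simulated counts. Precision rests on 2 biological replicates (per the labels) and on totals of 6383079 to 24029990; replicates differed by a chi-square of 12.0 or more per gene, so none was counted as a copy.

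The 58 genes, the lists and the tests were chosen with earlier results of these data known. Named genes are those with the 8 highest CPM in Δspt3, the 8 largest ratios, the 3 nearest the threshold on each side, up to 3 called per comparison and direction with separated replicates and 10 CPM, the 4 highest elsewhere, and neighbours in runs; others were named after their values were seen. RefSeq ASM3387043v1 matched 9531 gene models and 49 of the 58 by old locus tag and gave 0 symbols; only gene order was read, since the builds may differ. Lists by product, protein and promoter features were planned but need products or sequences not used here. Alternatives were RLE or total scaling, no filter, DESeq2 1.42.0, fewer libraries in the fit, a replicate block, a length offset, leaving out each replicate, and changed settings of the rule.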

Additional observations from a re-analysis of the deposited data

Results flagged for a closer look

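SMAC_07850 was picked out because its tissue effect has opposite signs in 2 strains: it was higher in perithecia of Δasm2 and lower in perithecia of ΔSMAC_03952, with a difference of 2.36 on the log2 scale (SE 0.46). In Δasm2 both perithecia libraries lay above both mycelium libraries, and in ΔSMAC_03952 both lay below. The test of the difference itself gave an edgeR adjusted p of 0.0903 over all genes, and DESeq2 gave 0.00352. SMAC_07850 lies next to SMAC_07851, which was lower in perithecia of both strains. The cause was not tested.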

How the results depend on the processing

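No result changed sign in a called value. Counts of listed genes called changed by more than 1.5 times as follows; the cause was not tested. For Δasm2 against ΔSMAC_03952 perithecia, 5 became 3 without the libraries of the rule, 14 in a fit of the compared libraries alone and 9 by DESeq2. The share of all genes called went from 4.50% to 4.59%, 20.1% and 7.33% in the same fits. For the same strains in mycelium, 3 became 6 with the length trend removed, 1 in a fit of the compared libraries alone and 8 by DESeq2. There the share of all genes called went from 3.46% to 4.16%, 0.394% and 7.06%. For the interaction, 0 became 1 with the replicate block and 3 by DESeq2. Leaving out 1 replicate at a time gave 8 to 12 calls for tissue in Δasm2, 13 to 23 for tissue in ΔSMAC_03952, 4 to 7 for Δasm2 against wild-type perithecia, 4 to 7 for ΔSMAC_03952 against wild-type perithecia, 1 to 4 and 1 to 7 for the 2 comparisons between the deletion strains in perithecia and mycelium, and 0 to 0 for the interaction; a group then has 1 library, which is assumed to vary like the others. The rule found 67 to 74 genes without 1 of its replicates, 61 on TMM-scaled libraries or with a minimum of 5 CPM, and 50 with 0.5 CPM added. Of the alternative values for the named genes, 227 kept their side of the threshold and 37 kept their direction but did not pass it. With library totals, the median log2 fold change over all genes is 0.20 in the Δasm2 and 0.24 in the ΔSMAC_03952 tissue comparison, and that of the list -0.26 and -0.72. Between Δasm2 and ΔSMAC_03952 mycelium the list's median of -0.32 becomes 0.05 without ΔSMAC_03952 mycelium replicate 1. Replicate differences correlated between -0.362 and 0.416 over 21 pairs of groups, 11 of them over 0.1, so replicate numbers were not taken as pairing the samples; all 10 pairs that leave out wild-type and ΔSMAC_03952 mycelium lay between 0.164 and 0.416, a hint from the data and not from the design. The tallies of highest group and of genes lower in both strains without ΔSMAC_03952 mycelium replicate 1 were chosen after seeing the data. With the replicate block the other comparisons gave 17, 28, 9, 10, 6 and 4 calls, in the order above. Genes with few counts limit the precision, since 13 listed genes stood under 1 CPM in wild-type mycelium.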
